A study of Homo sapiens with 6 samples.

Results

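Open chromatin regions close to the centromeres were examined in human embryonic stem cells sorted by stem cell surface antigens. A region was taken as pericentromeric when its midpoint fell in the centromere gap of the hg19 assembly, set at 3 Mb, or within 2 Mb of either end of it, on the 21 chromosomes for which a gap position was given. Gap starts were rounded positions in Mb, so distances to the gap are approximate. The rule used position alone and no measured value, and it found 1237 of the 118556 regions of the count table. The regions were 316 to 8333 bp wide, with a median of 877 bp against 879 bp over the whole table.

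WA09 is an established human embryonic stem cell line, and all libraries came from this single line, so line-to-line variation was not sampled. The high population carried GCTM-2highCD9highEPCAMhigh in its labels and the mid population GCTM-2midCD9mid, although the titles of the mid libraries read "low". GCTM-2 is an epitope on a stem cell surface proteoglycan, CD9 is a tetraspanin and EPCAM is an epithelial adhesion molecule, and the grades of staining were used to separate cells along the pluripotency hierarchy. Each population had 3 replicates, no library had a drug treatment in its labels, and sorted fractions of one culture are gates on a continuum, not pure cell types.

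The assay, FAST-ATAC, reads out open chromatin: Tn5 transposase inserts sequencing adapters wherever nucleosomes leave the DNA exposed. Centromeres are built on long arrays of alpha satellite DNA, and the flanking pericentromeric DNA holds further satellite families and segmental duplications that are near-identical to one another. Much of it is packed as constitutive heterochromatin marked by H3K9 trimethylation and DNA methylation, which keeps repeats silent. The hg19 assembly holds few of the satellite arrays, leaves large heterochromatic blocks on chromosomes 1, 9 and 16 and the short arms of the acrocentric chromosomes mostly unassembled, and therefore lets only the assembled flank be measured.

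The flanks held fewer regions per Mb of coordinates than the sequence beyond them. Outside the gap windows the pericentromeric flanks held 14.7 regions per Mb over 84 Mb of coordinates, which include unassembled sequence, against 26.1 per Mb in the bands 2 Mb further out on each side. The density over assembled bases alone was not measured. No region lay before the gap on 5 chromosomes (11, 13, 14, 15 and 22) and none lay after it on 4 (1, 7, 9 and 16). The number of regions ran from 1 on chromosome 16 to 167 on chromosome 20. The regions present had a median mean CPM (counts scaled to library size with TMM factors, averaged over the 6 libraries) of 4.05, against 4.004 over the table. The total count per library was between 15486251 and 26225539 in the high population and between 23091028 and 29025274 in the mid population, and the median count of a pericentromeric region was 62 to 113 reads per library. The median spread between replicates was also like that elsewhere, with a coefficient of variation of 18.7% for high and 15.4% for mid libraries, against 17.1% and 15.4% for all other regions. Large differences between replicate numbers were more frequent, as given below. A range above 1 on the log2 scale was found in 3.56% of pericentromeric and 1.30% of other regions.

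The first question was whether chromatin beside the centromeres differed in accessibility between the populations. Pericentromeric regions tended to be more accessible in the mid population. Of the 1237 regions, 103 (8.33%) were called more accessible in the mid population by edgeR's quasi-likelihood test at an adjusted p under 0.01, where 3.77% of all regions were called in this direction. Only 7 (0.566%) were called more accessible in the high population, where 2.32% of all regions were. The median log2 ratio of high to mid was -0.21, with quartiles of -0.46 and 0.06, against a median of 0.03 over the table, and 875 pericentromeric regions (70.7%) lay below 0 against 46.5% of all regions. All 103 and all 7 called regions had the same direction in each of the 3 same-numbered pairs of libraries. Pairs that disagree leave little room for a call when replicate number is a block, so this adds no separate evidence.

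The CPM values themselves had the same balance. In 298 pericentromeric regions (24.1%) every mid library lay above every high library, where this held for 13% of all regions. The opposite separation was found in 47 regions (3.8%), where it held for 12.9% of all regions. The median difference within pairs was -0.23 for pair 1, -0.32 for pair 2 and -0.10 for pair 3 on the log2 scale, so each pair had the direction but pair 3 had it least.

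The number of calls moved with the replicate 2 libraries and with the replicate number in the fit. Without the replicate number as a block, 33 pericentromeric regions were called in mid and 1 in high. Without both replicate 2 libraries, 12 pericentromeric regions were called in the mid population and 3 in the high population, while among all regions 438 and 371 were called, so the share called in mid was 0.970% near centromeres and 0.369% over the table. Without the high replicate 2 library alone 15 regions were called in mid, and without the mid replicate 2 library alone 12 were. Leaving out any other pair or single library gave 108 to 134 regions called in mid. The median log2 fold change over pericentromeric regions was -0.16 without replicate 2.

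The same direction was seen in the share of all counted reads. Pericentromeric regions took 1.03%, 1.06% and 1.13% of the counts in the high libraries and 1.28%, 1.47% and 1.33% in the mid libraries. The mean was 1.07% ± 0.051 (SD, n = 3) for high and 1.36% ± 0.097 (SD, n = 3) for mid, and the libraries of the groups did not overlap. One region on chromosome 20, described next, held 5.73 to 7.25% of the pericentromeric counts in the high libraries and 13.1 to 16.9% in the mid libraries. Without it the shares were 1.001% ± 0.056 and 1.15% ± 0.065 (SD, n = 3 each), and the difference fell from 0.28 to 0.15 percentage points. Without chromosomes 17 and 20, an omission chosen after seeing the data, the shares were 0.711%, 0.709% and 0.759% in the high and 0.741%, 0.823% and 0.789% in the mid libraries. The groups then overlapped, and the difference was 0.058 percentage points, with each pair still higher in mid.

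The regions with the most reads for their width were looked at next. The region chr20:26188468-26190828 (2361 bp, 210 kb before the gap) held 591 CPM per kb and ranked 1 among all 118556 regions by this density, where the median pericentromeric region held 4.51 CPM per kb. Its CPM was 716, 728 and 628 in the high libraries and 2066, 2475 and 1760 in the mid libraries. Every mid library was above every high library, and mid replicate 2 was the highest of the 6.

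The next pericentromeric region by density was narrow. The region chr12:38543582-38544244 (663 bp, 644 kb after the gap) ranked 7 in the table by density, and its CPM was 30.9, 28.8 and 26.9 in the high and 77.1, 101 and 71.2 in the mid libraries. The groups were far apart and mid replicate 2 was again the highest. Its log2 fold change was -1.51 (SE 0.13, edgeR quasi-likelihood adjusted p = 1.90e-12). That of the chromosome 20 region was -1.59 (SE 0.09). With loess offsets on average log2 CPM the chromosome 20 region moved to -0.90 and the chromosome 12 region to -1.26, both still called.

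The next region by density was picked after its values were seen. The region chr21:15457030-15457650 (621 bp, 1157 kb after the gap), ranked 17 in the table, had 18.1, 20.1 and 16.4 CPM in the high and 36.4, 41.8 and 33.9 CPM in the mid libraries. Both groups were tight and did not overlap, with a log2 fold change of -1.04 (SE 0.13, edgeR quasi-likelihood adjusted p = 1.83e-07). Dense regions further down the order had smaller differences.

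The fourth by density, chr1:120837748-120839637, stood at -0.52 on the log2 scale and was called in mid. The fifth, chr3:93698295-93699752, lay 199 kb from the gap of its chromosome and stood at 0.20 with an edgeR adjusted p of 0.29. High density beside a centromere was therefore found with a called difference in mid and also without a call, as in the plot of the densest regions. These regions were chosen by density after the data were seen. Reads were aligned with the default settings of BWA, and whether reads that map to several places were filtered afterwards is not stated, so a region with near-identical copies may hold reads from those copies, and the number of copies was not tested here.

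**Figure D1:**
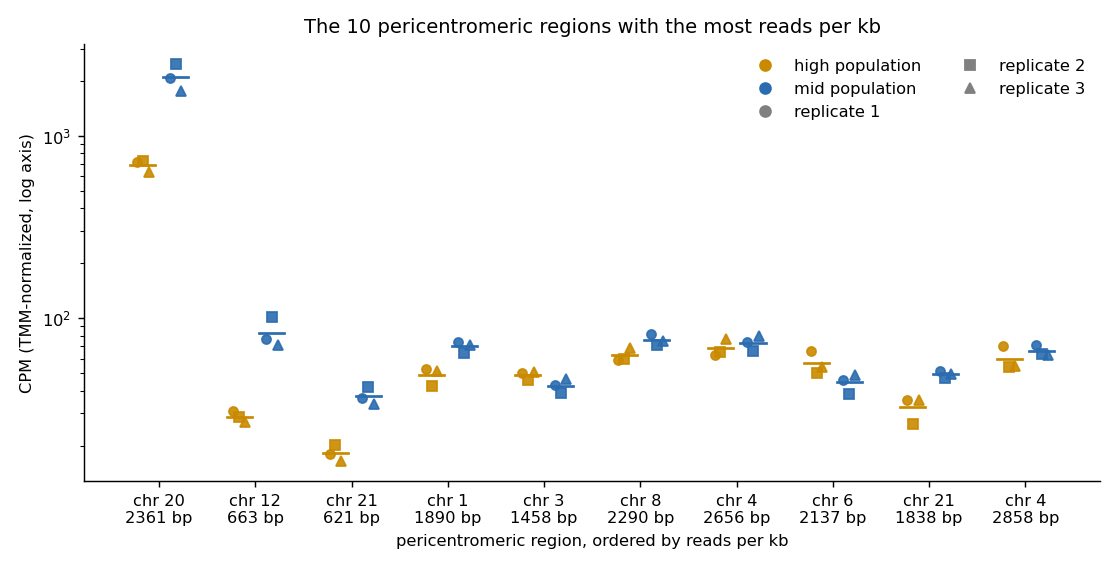
The 10 pericentromeric regions with the most reads per kb, with TMM-normalized CPM on a log axis for each library (circles, squares and triangles for replicates 1, 2 and 3; orange for high, blue for mid) and the group mean as a line. The first 3, on chromosomes 20, 12 and 21, have all mid libraries above all high libraries by more than 2-fold on the means, whereas the regions on chromosomes 3 and 4 have groups that overlap.

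Among the regions with the largest fold changes, those called in mid were mostly weak sites. The largest was chr8:42132066-42132616 (551 bp), with CPM of 1.37, 2.03 and 0.370 in the high and 4.17, 5.97 and 2.76 in the mid libraries. Replicate 2 was the highest and replicate 3 the lowest in both populations, and the groups did not overlap. The log2 fold change was -1.90 (SE 0.27, edgeR quasi-likelihood adjusted p = 1.06e-06).

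The region chr17:21013057-21013772 had 1.48, 0.984 and 2.11 CPM in the high and 3.08, 4.98 and 4.37 CPM in the mid libraries. The region chr14:20889392-20890071 had 1.08, 1.11 and 1.48 CPM in the high and 3.91, 3.33 and 2.68 CPM in the mid libraries. Both had groups that did not overlap, at log2 fold changes of -1.41 (SE 0.25) and -1.39 (SE 0.27), and both lost the call without replicate 2. Over the 103 regions called in mid the log2 fold change ran from -1.90 to -0.45 with a median of -0.70, against a median of -0.66 over all regions of the table called in mid, and 12 passed a 2-fold difference.

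Of the 10 regions with the most reads 7 were called in mid. Calls in mid rose with read level elsewhere too. Among other regions 12.7% were called in mid in the highest of 4 classes of mean CPM, and 0.368% in the lowest. No share was computed for other regions with as many reads as these 10. By mean CPM, the 10 were the region on chromosome 20 given above, chr20:30191247-30197178, 4 on chromosome 17, and 1 each on chromosomes 2, 4, 8 and 10. The region chr20:30191247-30197178 (5932 bp, 794 kb after the gap) had 51.1, 43.3 and 53.8 CPM in the high and 111, 101 and 92.8 CPM in the mid libraries. The groups were well apart, and the log2 fold change was -1.04 (SE 0.12, edgeR quasi-likelihood adjusted p = 1.71e-08), or -0.63 and still called with offsets fitted on width.

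The 4 on chromosome 17 were all called in mid. The strongest of them by reads, chr17:27049635-27056721 (7087 bp), had 68.3, 69.2 and 77.9 CPM in the high and 137, 139 and 118 CPM in the mid libraries, with a log2 fold change of -0.87 (SE 0.11). The regions chr17:27275666-27281037, chr17:20943325-20947844 and chr17:27043391-27048126 stood at -0.85, -0.86 and -0.65. None of the 4 had overlapping groups. The last lost the call without replicate 2 and with loess offsets, which moved it to -0.33 (on average log2 CPM) and -0.30 (on width). The same offsets on width moved the other 3, in the order given, to -0.41, -0.47 and -0.52, still called.

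The other strong regions were less clear. The region chr2:91813690-91821140 (483 kb before the gap) had 51.5, 74.1 and 50.9 CPM in the high and 72.4, 98.03 and 70.4 CPM in the mid libraries. Replicate 2 was the highest in both populations, so the groups overlapped although each pair had the direction, and the log2 fold change of -0.45 (SE 0.12, edgeR quasi-likelihood adjusted p = 0.00523) lost its call without the replicate number in the fit. Offsets fitted on region width moved it to 0.02.

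The region chr10:43697145-43701644 stood at -0.42 with an edgeR adjusted p of 0.0102, just past the threshold. The regions chr8:42009300-42011589 and chr4:48780956-48783611 were not called, at -0.28 and -0.10 with edgeR adjusted p of 0.0983 and 0.601. The widest pericentromeric region, chr18:19744397-19752729 (8333 bp), had 39.4, 37.1 and 35.6 CPM in the high and 64.7, 66.7 and 59.4 CPM in the mid libraries and was called in mid at -0.77 (SE 0.12). The call was lost without replicate 2 and with offsets fitted on region width, which moved the value to -0.26.

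Some calls in mid lay side by side. Neighbouring regions less than 100 kb apart and called the same way formed 12 runs in mid with 30 of the 103 regions (29.1%), where 38.5% of all regions called in mid lay in such runs. In high there was 1 run of 2 regions on chromosome 5. The longest were 4 regions at chr17:27036710-27075018, with log2 fold changes from -0.87 to -0.47, 4 regions at chr20:31330041-31353342, from -1.12 to -0.61, and 3 regions at chr14:20922377-20939039, from -0.75 to -0.60. All 3 regions of the chromosome 14 run lost their call without the replicate block and without replicate 2. In the chromosome 20 run all but the last region, chr20:31348373-31353342, lost their call without the replicate block. The region with the largest change in that run, chr20:31339289-31340630, moved from -1.12 to -0.64 without replicate 1 and was then not called. In the chromosome 17 run the last region, chr17:27069302-27075018, lost its call in 6 of 13 alternatives and stood at -0.068 with offsets fitted on region width.

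Within the chromosome 20 run the strongest region, chr20:31348373-31353342, had 29.9, 33.7 and 34.0 CPM in the high and 60.3, 63.4 and 57.1 CPM in the mid libraries. The groups were separate and tight. In the chromosome 14 run the middle region, chr14:20928736-20930949, had 29.05, 34.2 and 45.9 CPM in the high and 60.6, 55.9 and 52.5 CPM in the mid libraries. Here replicate 1 of mid was the highest and replicate 1 of high the lowest, and the groups did not overlap. Adjacent regions share sequence context and are not independent of each other.

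The 7 regions called in the high population were narrower and weaker, 325 to 1195 bp wide with mean CPM of 1.16 to 13.3, and 6 of them lay after the gap. The largest fold change was at chr18:14784002-14784326 (716 kb before the gap), with 2.63, 1.42 and 1.44 CPM in the high and 0.526, 0.519 and 0.422 CPM in the mid libraries. The groups did not overlap, and the log2 fold change was 1.87 (SE 0.38, edgeR quasi-likelihood adjusted p = 0.000432). It was the only one of the 5 named regions called in high that kept its call in all 12 alternatives recomputed for it. DESeq2, which gave it no adjusted p and called 0 pericentromeric regions in high, was not among them. Nor were single-library omissions or offsets per chromosome.

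At chr11:55362783-55363251 the CPM was 6.96, 3.38 and 2.74 in the high and 1.47, 2.08 and 1.73 in the mid libraries. High replicate 1 stood well above the other 2 high libraries, and the log2 fold change was 1.23 (SE 0.25), or 0.66 and not called without replicate 1. At chr5:50500972-50501568 the values were 7.65, 6.09 and 3.0 CPM in the high and 1.65, 3.46 and 2.42 CPM in the mid libraries. These groups overlapped, since mid replicate 2 lay above high replicate 3, although the region was called at 1.10 (SE 0.24). Without replicate 1 it stood at 0.55 and was not called.

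The regions chr12:39456017-39456819 and chr5:50981743-50982747 were called at 1.01 and 0.80. The last 2, outside the rule for named regions and given to complete the count, were chr3:94131625-94132791 at 0.73 and chr5:50521558-50522752 at 0.59. Thus 4 of the 7 lay on chromosomes 3 and 5. Of the pericentromeric regions of these chromosomes 1.59% and 3.85% were called in high, against 3.02% and 3.26% of their remaining regions.

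The chromosomes differed in how their pericentromeric regions behaved. Chromosomes 17 and 20 held 312 of the 1237 regions and 56 of the 103 calls in mid. On chromosome 17, 28 of 145 regions (19.3%) were called in mid with a median log2 fold change of -0.43, and on chromosome 20, 28 of 167 (16.8%) with a median of -0.42. These are chromosomes on which calls in mid were frequent throughout, at 11.4% and 8.16% of their remaining regions. On the other chromosomes 47 of 925 regions (5.08%) were called in mid and 7 in high, where 2.57% of the remaining regions of those chromosomes were called in mid, and the medians were -0.13 near centromeres and 0.06 elsewhere.

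The acrocentric chromosomes 13, 14, 15, 21 and 22, whose short arms carry the ribosomal RNA genes and gather at nucleoli, were mostly on the mid side. Of their 112 pericentromeric regions 25 (22.3%) were called in mid and 0 in high, with a median of -0.47, where 4.54% of their remaining regions were called in mid with a median of -0.05. In high, DESeq2 also called 0 of the 112, of which 54 had no adjusted p, and edgeR had 0 at an unadjusted p under 0.05. The counts were 10 of 27 on chromosome 22, 6 of 12 on chromosome 14, 5 of 37 on chromosome 13, 4 of 33 on chromosome 21 and 0 of 3 on chromosome 15. In the bands 2 Mb further out, 15.5%, 24.7%, 13.2%, 2.94% and 7.14% were called in mid on these chromosomes in the same order. The regions of chromosomes 13, 14, 15 and 22 all lay after the gap, on the long-arm side, as did 15 of the 33 on chromosome 21. On the chromosomes that are not acrocentric 78 of 1125 regions (6.93%) were called in mid with a median of -0.20.

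Chromosomes 3, 4, 5 and 6 had pericentromeric medians above 0, as chromosome 12 did (0.03). The medians were 0.10, 0.05, 0.15 and 0.01 in that order, and each but that of chromosome 5 lay below the rest of its own chromosome. Over the 327 regions of these 4 chromosomes 4 (1.22%) were called in high and 1 (0.306%) in mid, where 3.49% and 1.21% of the rest of those chromosomes were called. Chromosome 4 had 117 pericentromeric regions and 0 calls in either direction by edgeR's quasi-likelihood test or DESeq2, with 10 higher in high and 6 higher in mid at an unadjusted edgeR p under 0.05. DESeq2 gave no adjusted p for 66 of the 117. Over the 21 chromosomes the pericentromeric median was below that of the rest of its own chromosome on 20 (all but chromosome 5), and 909 of the 1237 regions lay below the median of the rest of their own chromosome. Chromosomes 15 and 16 had only 3 and 1 regions, so their medians rest on very few values. If each chromosome's pericentromeric regions had been called at the rate of the rest of that chromosome, 50.4 calls in mid and 26.9 in high would have been counted in place of 103 and 7.

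**Figure D2:**
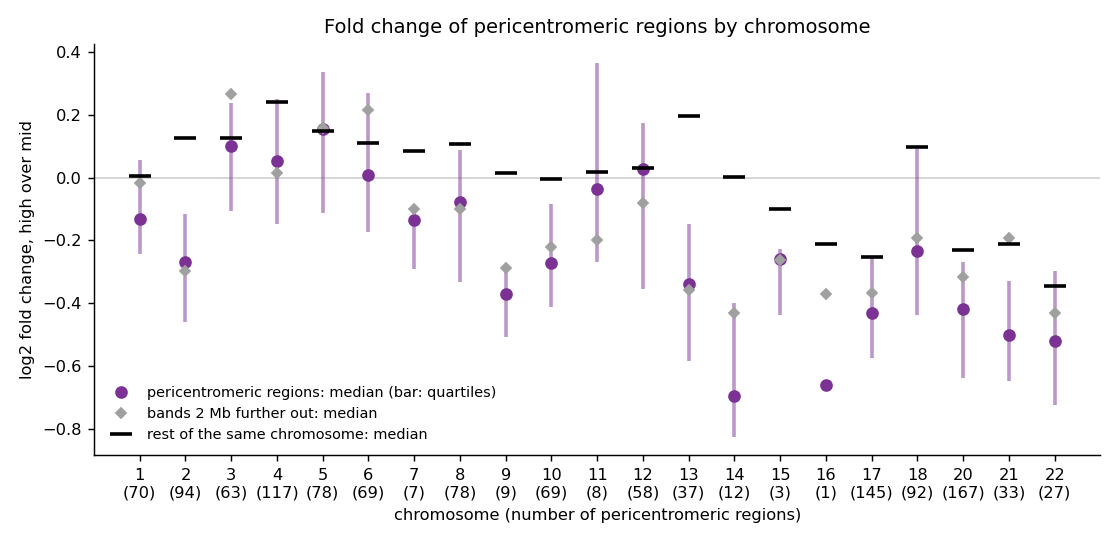
Log2 ratio of high to mid for the pericentromeric regions of each chromosome (purple point for the median, bar for the quartiles, number of regions in brackets), with the median of the bands 2 Mb further out (grey) and of the rest of the chromosome (black dash). The purple point lies below the dash on 20 of 21 chromosomes and below the grey diamond on 14 of 21.

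The pattern was not particular to the 2 Mb beside the gap. In the bands 2 Mb further out on each side, 154 of 2194 regions (7.02%) were called in mid and 12 (0.547%) in high, and the median log2 fold change was -0.18. The pericentromeric median was below that of its bands on 14 of 21 chromosomes, and the bands were below the rest of their chromosome on 17. Between the pericentromeric regions and the bands the values were thus close, and the difference between them was not tested.

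Calls did not gather at the gap itself. Of the 123 regions under 0.5 Mb from the gap 7 (5.69%) were called in mid, of 257 regions at 0.5 to 1 Mb 16 (6.23%), and of 855 regions at 1 to 2 Mb 80 (9.36%), with medians of -0.23, -0.23 and -0.21. All 7 regions called in high lay beyond 0.5 Mb. Before the gap 24 of 515 regions (4.66%) were called in mid with a median of -0.15, and after it 79 of 720 (10.97%) with a median of -0.26. In steps of 0.5 Mb the median before the gap moved from -0.27 at the gap to 0.02 at 9.5 to 10 Mb. After the gap it was -0.22 at the gap, -0.29 at 1.5 to 2 Mb and -0.11 at 9.5 to 10 Mb. Without chromosomes 17 and 20 these values were -0.21 and 0.03 before the gap, and -0.11, -0.23 and -0.06 after it. The chromosomes without regions on one side contribute to the other side only.

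**Figure D3:**
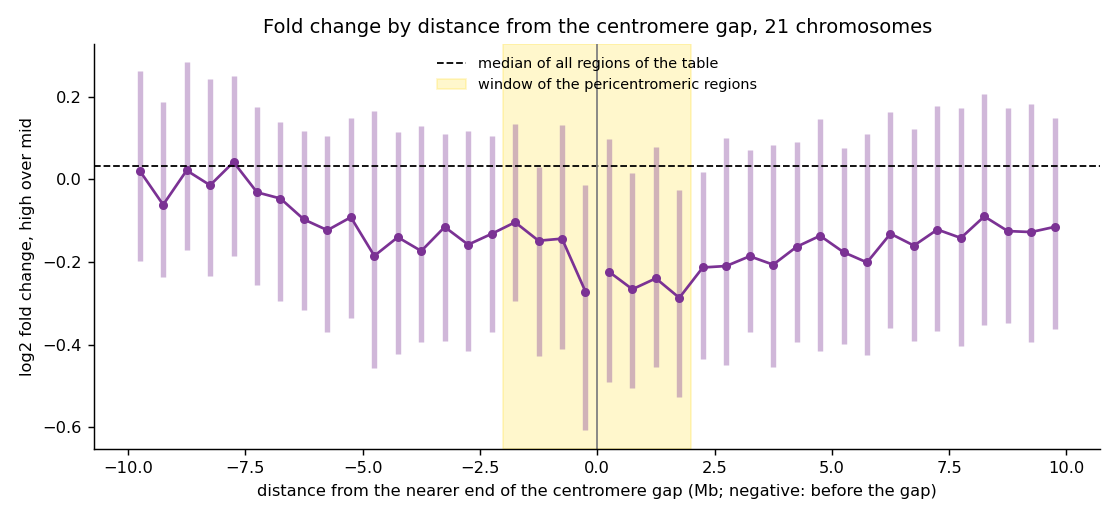
Median (point) and quartiles (bar) of the log2 ratio of high to mid in steps of 0.5 Mb by distance in Mb from the nearer end of the centromere gap, over 21 chromosomes, with the pericentromeric window shaded and the median of the whole table (0.03) as a dashed line. Medians are below the dashed line throughout the shaded window and return towards it with distance more fully before the gap than after it.

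Within the gap window as set here only 2 regions were present. Both lay near its far end, and its positions were rounded, so they may lie in assembled sequence beside the gap. The region chr17:25290255-25290686 stood at -1.04 on the log2 scale with an edgeR adjusted p of 0.0471, and the region chr4:52697055-52697780 stood at -0.07. Neither was called.

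Region width moved with the calls in mid. Pericentromeric and other regions were therefore compared within 4 classes of width, cut at 663, 879 and 1334 bp. In the widest class 80 of 341 pericentromeric regions (23.5%) were called in mid against 12.6% of other regions, and 0 against 2.52% in high, where DESeq2 also called 0 and edgeR had 11 pericentromeric regions at an unadjusted p under 0.05. In the narrowest class the shares called in mid were 1.69% and 0.463%, in the next 2.61% and 0.543%, and in the one after 3.65% and 1.26%. In the same order from narrow to wide the medians were -0.18, -0.11, -0.17 and -0.31 for pericentromeric regions and 0.09, 0.11, 0.06 and -0.12 for other regions. Pericentromeric regions lay below other regions of like width in each class, and those called in mid had a median width of 2067 bp.

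**Figure D4:**
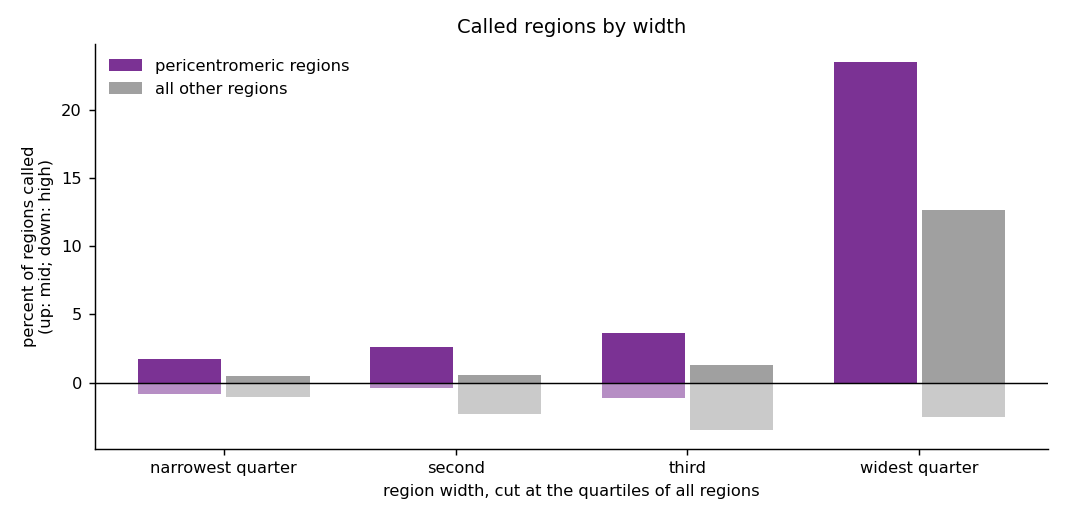
Percent of regions called more accessible in mid (bars upwards) and in high (bars downwards) by class of region width, for pericentromeric regions (purple) and all other regions (grey). In the widest class 23.5% of pericentromeric regions were called in mid against 12.6% of other regions, and the purple bars exceed the grey ones upwards in all 4 classes.

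The libraries also differed by replicate number near centromeres, in both populations alike. In 44 pericentromeric regions (3.56%) the mean log2 CPM over both populations ranged by more than 1 between replicate numbers, against 1.30% of other regions. Of the 44 regions, 32 were highest in replicate 2, 17 lay under 0.5 Mb from the gap and 3 were called. Replicate 2 was the highest in both populations in 31 of the 125 regions in the gap window or under 0.5 Mb from it (24.8%), in 17.1% of those at 0.5 to 1 Mb and in 11.3% of those at 1 to 2 Mb, against 11.3% of other regions. Over all pericentromeric regions replicate 3 was most often the highest in both populations (16.3% against 12.2% of other regions), followed by replicate 2 (13.9%) and replicate 1 (12.3% against 18.98% of other regions).

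The clearest group was on chromosome 20. Just after its gap, 12 regions between 29580765 and 29653903 had a summed CPM of 57.2, 82.4 and 29.6 in the high and 38.7, 131 and 64.0 in the mid libraries. Replicate 2 was the highest in both populations for 11 of the 12 regions, and the groups overlapped in all 12. Their median log2 fold change was -0.52, yet 0 were called by edgeR's quasi-likelihood test or DESeq2, with 7 higher in mid at an unadjusted edgeR p under 0.05. DESeq2 gave 8 of the 12 no adjusted p, so it could not have called them.

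Chromosome 21 had a like group before its gap. There 18 regions between 9684084 and 11181882 had a summed CPM of 66.9, 93.2 and 37.8 in the high and 50.1, 152 and 77.6 in the mid libraries. All 18 were highest in replicate 2 in both populations, the groups overlapped in all 18, and 1 was called in mid, at a median of -0.49. In both groups of regions replicate 1 was higher in the high than in the mid population, while replicates 2 and 3 were higher in mid. Whether these groups hold reads from near-identical sequence was not tested, so they are not counted as independent of each other.

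Across the gap on the same chromosome the order was different. The 15 regions after the gap of chromosome 21 summed to 102, 87.1 and 99.9 CPM in the high and 148, 156 and 138 CPM in the mid libraries. All mid libraries lay above all high libraries, 4 of the 15 regions were highest in replicate 2 in both populations, and 3 were called in mid. The median of -0.50 was thus close to that before the gap, but the libraries of a group lay closer together.

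Chromosome 17 resembled the latter. Its 17 regions in the gap window or under 0.5 Mb from it summed to 119, 117 and 149 CPM in the high and 186, 188 and 176 CPM in the mid libraries, with 3 highest in replicate 2 in both populations and 3 called in mid. The sums did not overlap. On chromosomes 3 and 4 the 32 corresponding regions had 0 calls by edgeR's quasi-likelihood test or DESeq2 and a median of 0.15, with 4 higher in high and 1 in mid at an unadjusted edgeR p under 0.05 and 1 highest in replicate 2 in both populations. DESeq2 gave no adjusted p for 19 of the 32. What distinguishes replicate 2 was not tested, since the labels give no batch.

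**Figure D5:**
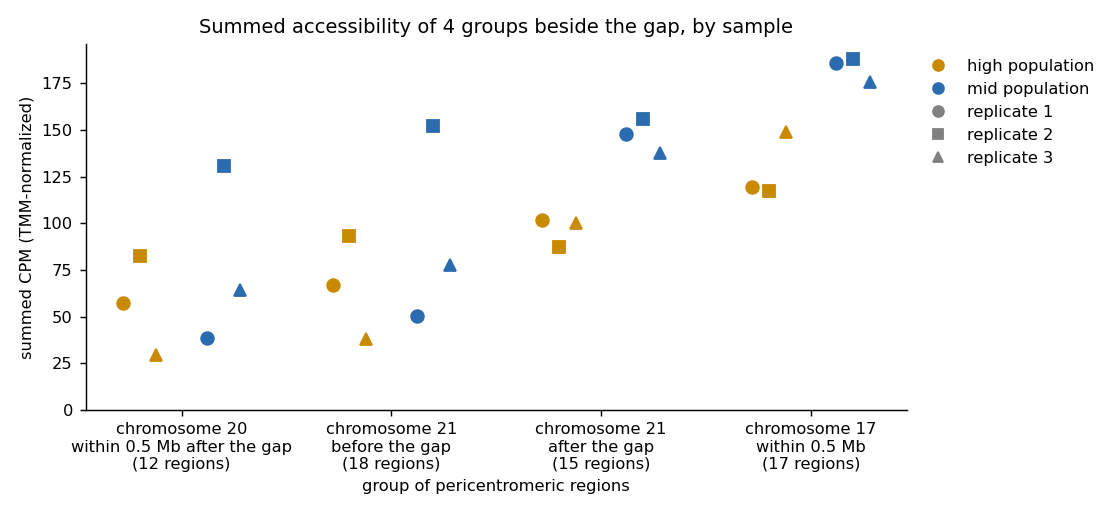
Summed TMM-normalized CPM of 4 groups of pericentromeric regions in each library (orange for high, blue for mid; circles, squares and triangles for replicates 1, 2 and 3). On chromosome 20 after the gap and chromosome 21 before the gap replicate 2 is the highest library of each population and the groups overlap, whereas on chromosome 21 after the gap and chromosome 17 all mid libraries lie above all high libraries.

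Of the 44 regions that ranged by more than 1 between replicate numbers, 9 were highest in replicate 1 and 3 in replicate 3. Among the latter, the region chr15:20180655-20181105 (451 bp, 181 kb after the gap) held 0, 4 and 95 reads in the high and 2, 5 and 103 reads in the mid libraries, and was chosen after its values were seen. Nearly all its reads came from the replicate 3 libraries of both populations, the populations themselves were close at -0.19 on the log2 scale (SE 0.42), and it was not called. It was the largest range between replicate numbers among the pericentromeric regions, at 2.98 on the log2 scale.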

How the data were processed

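FAST-ATAC libraries of 3 high and 3 mid populations sorted from WA09 cells were analysed. The authors trimmed reads, aligned them to hg19 with BWA 0.7.15 at default settings, removed duplicates, shifted reads to the Tn5 cut site, ran MACS on the pooled alignments of each population, joined both sets, dropped blacklisted intervals and deposited raw counts per region and library. A mapping quality filter is not given in the sources used here. Pooling leaves unknown which single libraries would have yielded a region. Starts in the deposited table were read as 0-based and are printed 1 higher.

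Counts of all 118556 regions were fitted by the quasi-likelihood test of edgeR 4.0.16 in R 4.3.3 (TMM, population plus replicate number as a block of 3 levels, no filter), and p-values were adjusted over all regions by the Benjamini-Hochberg method and called under 0.01. The labels give each replicate number once in each population. Deviations from the group means correlated at 0.302, 0.191 and 0.234 between libraries of the same number and at -0.257 to 0.060 between libraries of different numbers, so the numbers were taken to pair the libraries. The replicates are separate samples of 1 cell line. With the block in the fit, p-values rest on the spread left after replicate number is fitted, not on the whole spread between replicates. The methods describe biological replicates, without naming the culture of each.

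Pericentromeric members, groups and named regions were chosen with earlier results of these data known. The named regions were, in each direction, the 5 called members of largest fold change and the 3 of smallest p-value whose 3 pairs had the same sign, the 10 members with the highest mean CPM, the 3 longest runs of called neighbours and the widest member, which gave 29 regions. CPM are TMM-normalized and computed here. Groups of members are described by counts and medians beside those of the whole table, with no test. Alternatives covered the block, the test (likelihood ratio, DESeq2 1.42.0), the scaling, loess offsets (limma 3.58.1, span 0.3), a filter of CPM above 1 in at least 3 samples, the threshold, and each pair and each library left out. Offsets per chromosome and the omissions of chromosomes 17 and 20 and of the region with the most reads were added after seeing the data. On simulated counts with 200 regions changed by 1 on the log2 scale, the main fit called 109 of them, 0 with the wrong sign. It made 1 false call, so a region without a call may still differ. The 95% Wilson interval of the pericentromeric share was 0.0102 percentage points wide at most. It takes reads as independent molecules, and it does not cover the spread between libraries. Gene names, sequence and cell type markers were not used here, because the reference at hand is of another build than the counts.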

Additional observations from a re-analysis of the deposited data

How the results depend on the processing

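Over 21 alternatives for the whole table, the percent of pericentromeric regions called in mid was above that of all regions and the percent called in high below it in all 21, the median of pericentromeric minus all regions was -0.28 to -0.19, and no pericentromeric region called in one direction was called in the other. The counts themselves moved. An adjusted p threshold of 0.05 gave 209 regions in mid and 20 in high. Without the replicate block the counts were 33 and 1. DESeq2 gave 80 in mid and 0 in high, where 617 pericentromeric regions had no adjusted p, 31 were higher in high at an unadjusted p under 0.05, and edgeR called 7. Scaling by total counts alone, which moved the median of all regions from 0.03 to 0.12, gave 14 in high. There were 12 with loess offsets on average log2 CPM and 4 with offsets per chromosome, added after seeing the data. Within 1 Mb of the gap the counts were 23 and 3, and without chromosomes 17 and 20, also added, 47 in mid. Leaving out pairs gave 12 to 130 in mid and 3 to 4 in high, and leaving out single libraries gave 12 to 134 and 3 to 6, the lowest values all without replicate 2. Leave-out ranges were -0.26 to -0.16 for the median log2 fold change and -0.33 to -0.22 percentage points for the difference in share. That difference was -0.13 without the 10 regions of highest mean CPM, -0.17 within 1 Mb, -0.15 without the highest region and -0.058 without chromosomes 17 and 20. Of the 21 named regions called in mid, 8 kept the call in each alternative recomputed for them, and 12 lost it without replicate 2. Those alternatives left out single-library omissions, offsets per chromosome, replicate 1 set apart as a batch, and DESeq2 where it gave no adjusted p. Signs turned for chr2:91813690-91821140 (0.018 with loess offsets on width), chr4:48780956-48783611 (0.20 on CPM and 0.085 on width, not called) and chr8:42009300-42011589 (0.013 on CPM, not called). The causes were not tested. The median count of 62 to 113 reads per region and library limits what can be detected in narrow regions.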

Other observations

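Further groups beside single gaps had both features described above, in differing proportion. On chromosome 12 the 12 regions under 1 Mb after the gap summed to 82.6, 82.2 and 63.0 CPM in the high and 124, 184 and 126 CPM in the mid libraries. All mid libraries lay above all high libraries, but this rested on the dense region chr12:38543582-38544244, without which the sums were 51.7, 53.4 and 36.1 CPM in the high and 46.6, 83.4 and 54.3 CPM in the mid libraries and overlapped. Further, 7 of the 12 regions were highest in replicate 2 in both populations, 2 were called in mid and the median log2 fold change was -0.51. On chromosome 18 the 14 regions in the gap window or under 0.5 Mb from it summed to 82.4, 78.3 and 95.3 CPM in the high and 112, 117 and 107 CPM in the mid libraries, with a median of -0.22 and 2 called in mid. Those sums did not overlap, and 3 of the 14 regions were highest in replicate 2 in both populations.

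On chromosome 22, 10 of 27 regions were called in mid, as were 13.7% of the remaining regions of that chromosome. Of the 10, 3 formed a run at chr22:17753190-17850944 with log2 fold changes from -0.96 to -0.71. On chromosome 2 the 21 regions nearest the gap summed to 159, 192 and 184 CPM in the high and 206, 242 and 211 CPM in the mid libraries, which did not overlap, yet 1 of the 21 was called and their median was -0.22. By read level, 22.8% of pericentromeric regions in the highest of 4 classes of mean CPM were called in mid against 12.7% of other regions in that class. These groups were chosen after their values were seen.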
